A study of Mus musculus with 6 samples.

Results

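Of the 8 genes that encode the myeloid transcription factors PU.1 (Spi1), C/EBP alpha, beta, delta and epsilon (Cebpa, Cebpb, Cebpd, Cebpe), GFI1, IRF8 and KLF4, 7 were measured by 11 probe sets out of 45037 on the array once controls were set aside. A probe set belonged to a factor when its gene symbol, brought up to date through the Entrez gene identifier, was that of the factor. Spi1, Cebpa and Gfi1 had 1 probe set each and Cebpb, Cebpd, Irf8 and Klf4 had 2 each; Cebpe is not analysed here. The RNA came from bone marrow of adult female mice aged 6 to 16 weeks, in cells negative for blood lineage markers and sorted by flow cytometry, a selection meant to enrich stem and progenitor cells. In all, 18193 genes had a probe set of a single symbol. The mice were of strain B.D(Chr5), whose label names chromosome 5 and whose genetic background is labelled B.D, or of strain C57B/L6. Each strain had 3 biological replicates, each on an Affymetrix array of its own. The labels do not say whether a replicate was 1 mouse or several, and the p-values rest on the spread among these arrays, which may be technical.

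These factors turn multipotent progenitors into granulocytes and monocytes. PU.1, an ETS family protein, and C/EBP alpha are needed for the granulocyte-monocyte progenitor stage, C/EBP beta, delta and epsilon act in later or stress-driven granulocyte production, and the repressor GFI1 favours neutrophils. IRF8 and KLF4 favour monocytes and dendritic cells. In bulk samples such as these, fewer cells of a type and less RNA per cell cannot be told apart.

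The values were MAS5 signals, a linear intensity per probe set, with array medians of 65.0 to 79.5. The level of 27 bacterial control probe sets, taken as the 95th percentile on each array, lay between 21.8 and 38.0, and all 11 probe sets of the factors lay above it on all 6 arrays. The defining markers of the labelled cells, Kit, Cd34, Mpo and Gata2, were all above it as well, their summed signal lying between 32664 and 35619 in B.D(Chr5) and between 30934 and 31734 in C57B/L6. Most of that sum was Mpo, with means of 24619 in B.D(Chr5) and 21006 in C57B/L6. Kit, Cd34 and Gata2 had lower means in B.D(Chr5), 4559, 3527 and 1361, against 4925, 3933 and 1459 in C57B/L6. B.D(Chr5) replicate 2 stood apart from the other arrays of its strain for the factors, as given below. It correlated best with C57B/L6 replicate 1 (r = 0.987 across the tested probe sets), against 0.986 and 0.977 with B.D(Chr5) replicates 1 and 3, and it had the highest 18S ribosomal RNA signal, 20010.3, where the other arrays ran between 1726 and 13058. Over all tested probe sets B.D(Chr5) replicate 3 stood farthest apart, with r of only 0.974 to 0.979 with every other array. Replicate 3 also had the highest control level, 38.0, the highest median, 79.5, and the fewest probe sets above the controls, 63.3%. The strain label of B.D(Chr5) replicate 2 was borne out by AI506816, a chromosome 5 gene, with signals of 1630.4, 2316 and 1788 in B.D(Chr5) replicates 1, 2 and 3, against 40.8, 41.9 and 32.1 in C57B/L6. For Ifi202b, an interferon-inducible gene of chromosome 1, the signal was 3499.9 on B.D(Chr5) replicate 2, against 1.84 to 4.27 in C57B/L6. Of the 73 probe sets that passed without it over the whole array, it lay nearer to the other B.D(Chr5) arrays in 36 and nearer to C57B/L6 in 37, while among the 13 of these with a log2 change beyond 2 it lay nearer to the other B.D(Chr5) arrays in 11. Results on the factors are therefore given with all 6 arrays and without this one.

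None of the factors passed the threshold with all 6 arrays (limma, Benjamini-Hochberg adjusted p under 0.05 over all tested probe sets). Gfi1, Cebpb, Cebpd, Cebpa and Spi1 had higher mean signals in B.D(Chr5), by ratios of means between 1.23 and 1.58 on their brightest probe sets. In each of these 5 genes B.D(Chr5) replicates 1 and 3 were the highest of the 6 arrays, while replicate 2 lay among or below the C57B/L6 arrays. Irf8 and Klf4 had near-equal means in both strains. Without B.D(Chr5) replicate 2, Gfi1 passed the threshold and the other factors did not. That array is singled out here because it was low for the factors, so leaving it out raises their changes and narrows their spread by construction, and no p from that fit is independent evidence of a strain difference.

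Gfi1, the one factor encoded on chromosome 5 (107716655 to 107725805 in the RefSeq annotation of GRCm38.p6), represses transcription through zinc fingers and a SNAG domain and restrains monocyte genes in neutrophil precursors. It had signals of 656, 295 and 653 in B.D(Chr5) replicates 1, 2 and 3, against 325, 376 and 312 in C57B/L6. B.D(Chr5) replicates 1 and 3 lay well above all C57B/L6 arrays and replicate 2 below all of them, so the groups overlapped. Gfi1 averaged 534 ± 208 in B.D(Chr5) and 338 ± 34.1 in C57B/L6 (SD, n = 3 each). The strains differed by 0.56 on the log2 scale, with an SE of 0.27 and a 95% interval of -0.049 to 1.16 (limma adjusted p = 1.00). Without B.D(Chr5) replicate 2 the difference was 0.93, SE 0.14 (limma adjusted p = 0.0438), and over the 13 alternatives in which it was tested the adjusted p ran from 0.0438 to 1.00. The other fits with 1 array left out gave log2 changes between 0.37 and 0.63, all positive.

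Cebpb, on chromosome 2, encodes the C/EBP that sustains granulocyte production during infection and also acts in macrophages. Its brighter probe set had signals of 2037, 1355 and 2347 in B.D(Chr5) replicates 1, 2 and 3, against 1112, 1393 and 1338 in C57B/L6. The other probe set had 711, 330.0 and 623 in B.D(Chr5), against 351, 400.0 and 335 in C57B/L6. On both probe sets B.D(Chr5) replicate 2 lay at the level of C57B/L6. The brighter probe set averaged 1913 ± 507 in B.D(Chr5) and 1281 ± 149 in C57B/L6 (SD, n = 3 each), a difference of 0.54 on the log2 scale with a 95% interval of 0.13 to 0.95 (limma adjusted p = 0.871). This was the 1 probe set of the factors with an unadjusted p under 0.05. The dimmer probe set gave a log2 change of 0.53 (interval -0.023 to 1.08). Without B.D(Chr5) replicate 2 the log2 changes were 0.77 and 0.86 (limma adjusted p = 0.0566 and 0.0648, against up to 1.00 in other alternatives).

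Cebpd, on chromosome 16, encodes a C/EBP induced by inflammatory cytokines and G-CSF. Its brighter probe set had signals of 1189, 592 and 1086 in B.D(Chr5) replicates 1, 2 and 3, against 705, 721 and 720.3 in C57B/L6. The C57B/L6 arrays lay within a narrow band, with B.D(Chr5) replicate 2 below it and the other 2 B.D(Chr5) arrays above. The means were 956 ± 319 in B.D(Chr5) and 715 ± 8.66 in C57B/L6 (SD, n = 3 each), a difference of 0.35 on the log2 scale with a 95% interval of -0.15 to 0.84 (limma adjusted p = 1.00). It was 0.66 without B.D(Chr5) replicate 2 (limma adjusted p = 0.0619, against up to 1.00 in other alternatives). The second probe set was too dim to be tested, with 74.3, 55.0 and 65.9 in B.D(Chr5), against 35.3, 54.7 and 58.6 in C57B/L6.

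Cebpa, on chromosome 7, encodes the C/EBP without which granulocyte-monocyte progenitors do not form. It had signals of 1773, 1119 and 1839.5 in B.D(Chr5) replicates 1, 2 and 3, against 1101, 1088 and 1354 in C57B/L6. Replicate 2 of B.D(Chr5) again lay within the range of C57B/L6. Cebpa averaged 1577 ± 398 in B.D(Chr5) and 1181 ± 149.6 in C57B/L6 (SD, n = 3 each), a difference of 0.39 on the log2 scale with a 95% interval of -0.021 to 0.79 (limma adjusted p = 1.00). Without B.D(Chr5) replicate 2 the log2 change was 0.61 (limma adjusted p = 0.119, against up to 1.00 in other alternatives).

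Spi1, also on chromosome 2, encodes PU.1, whose dose helps to set the balance between macrophage, granulocyte and B cell fates. Its signals were 2089, 1385 and 2084 in B.D(Chr5) replicates 1, 2 and 3, against 1302, 1509 and 1694 in C57B/L6. The spread within C57B/L6 was wider here than for Cebpd, and the lowest array of all was C57B/L6 replicate 1. Spi1 averaged 1853 ± 405 in B.D(Chr5) and 1502 ± 196 in C57B/L6 (SD, n = 3 each), a difference of 0.28 on the log2 scale with a 95% interval of -0.086 to 0.65 (limma adjusted p = 1.00). It was 0.48 without B.D(Chr5) replicate 2 (limma adjusted p = 0.297, against up to 1.00 in other alternatives).

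**Figure D1:**
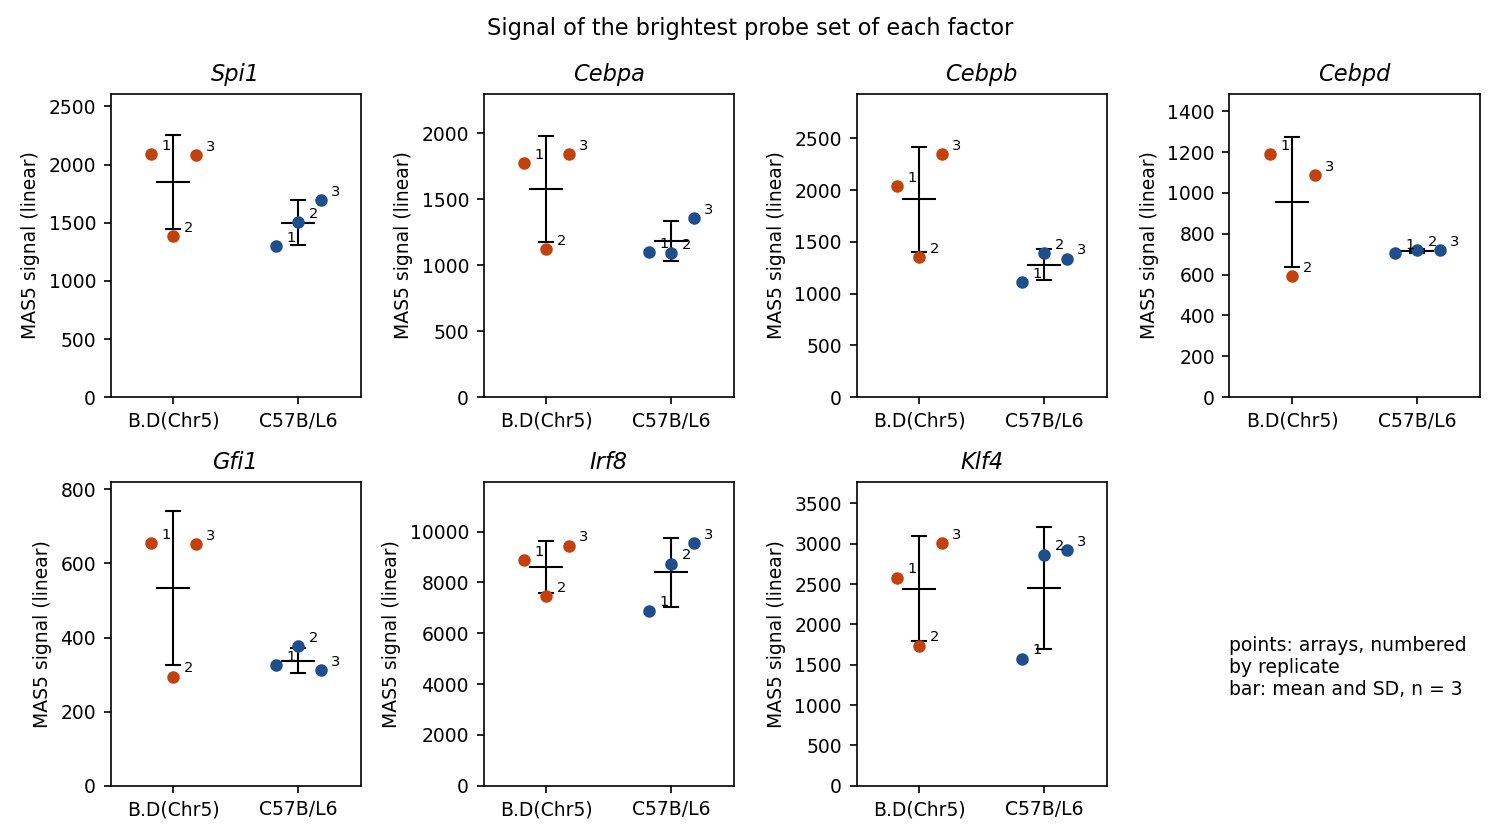
Each panel plots the MAS5 signal (linear scale) of the brightest probe set of a factor on the 3 B.D(Chr5) arrays (left) and the 3 C57B/L6 arrays (right), with the replicate number beside each point and bars for the mean and SD. For Spi1, Cebpa, Cebpb, Cebpd and Gfi1, B.D(Chr5) replicates 1 and 3 are the highest arrays and replicate 2 lies near C57B/L6.

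Irf8, on chromosome 8, encodes an interferon regulatory factor that pairs with PU.1 and directs progenitors to monocytes and dendritic cells. Its brighter probe set had signals of 8884, 7474 and 9453 in B.D(Chr5) replicates 1, 2 and 3, against 6892, 8743 and 9563 in C57B/L6. The strains overlapped fully, and the low arrays on this probe set were C57B/L6 replicate 1 and B.D(Chr5) replicate 2. The means were 8604 ± 1019 in B.D(Chr5) and 8399 ± 1368 in C57B/L6 (SD, n = 3 each), a difference of 0.041 on the log2 scale with a 95% interval of -0.25 to 0.33 (limma adjusted p = 1.00). The second probe set had signals of 4519, 3766 and 5492 in B.D(Chr5), against 3710, 3742 and 5457 in C57B/L6. There C57B/L6 replicate 2 was about as low as C57B/L6 replicate 1 and B.D(Chr5) replicate 2. It had a log2 change of 0.10, with an interval of -0.28 to 0.48, on this second probe set.

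Klf4, on chromosome 4, encodes a zinc finger factor of inflammatory monocytes. Its brighter probe set had signals of 2579.6, 1737 and 3013 in B.D(Chr5) replicates 1, 2 and 3, against 1576, 2866 and 2919 in C57B/L6. As for the brighter probe set of Irf8, C57B/L6 replicate 1 and B.D(Chr5) replicate 2 were the low arrays and the strains overlapped. The means were 2443 ± 649 in B.D(Chr5) and 2454 ± 760.2 in C57B/L6 (SD, n = 3 each), a difference of 0.011 on the log2 scale with a 95% interval of -0.56 to 0.58 (limma adjusted p = 1.00). The dimmer probe set had a log2 change of -0.16, with an interval of -0.60 to 0.28, and on the linear scale both probe sets had a slightly lower mean in B.D(Chr5), with ratios of means of 0.996 and 0.916. On the dimmer probe set B.D(Chr5) replicate 2 was lowest, at 473. C57B/L6 replicate 1 was next, at 646, near B.D(Chr5) replicate 1 at 661. The log2 change of the brighter probe set turned negative after centring on the median. Its interval includes the log2 changes measured for Spi1 and Cebpa, whereas that of the dimmer probe set ends below both.

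Of the 11 probe sets, 10 were bright enough to be tested. Of these 0 passed in limma, where 0.182% of all 22518 tested probe sets did, and 1 had an unadjusted p under 0.05, against 4.75% of all. None of the 10 had all B.D(Chr5) arrays above or all below those of C57B/L6, patterns held by 4.16% and 5.24% of all tested probe sets. A positive log2 change was found in 9 of the 10, against 50.1% of all, and the median over the 10 was 0.32, against 0.00025 over all tested probe sets. Without B.D(Chr5) replicate 2, 1 of the 10 passed (0.324% of all), 6 had an unadjusted p under 0.05, all higher in B.D(Chr5) (6.72% of all in either direction, 3.61% higher), and the median log2 change was 0.55. That array was left out because it was low for these probe sets, which raises their counts by construction. The shares over all probe sets, not chosen in this way, are no fair reference for them. Probe sets of 1 gene, and factors present in the same cells, are not independent of each other.

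**Figure D2:**
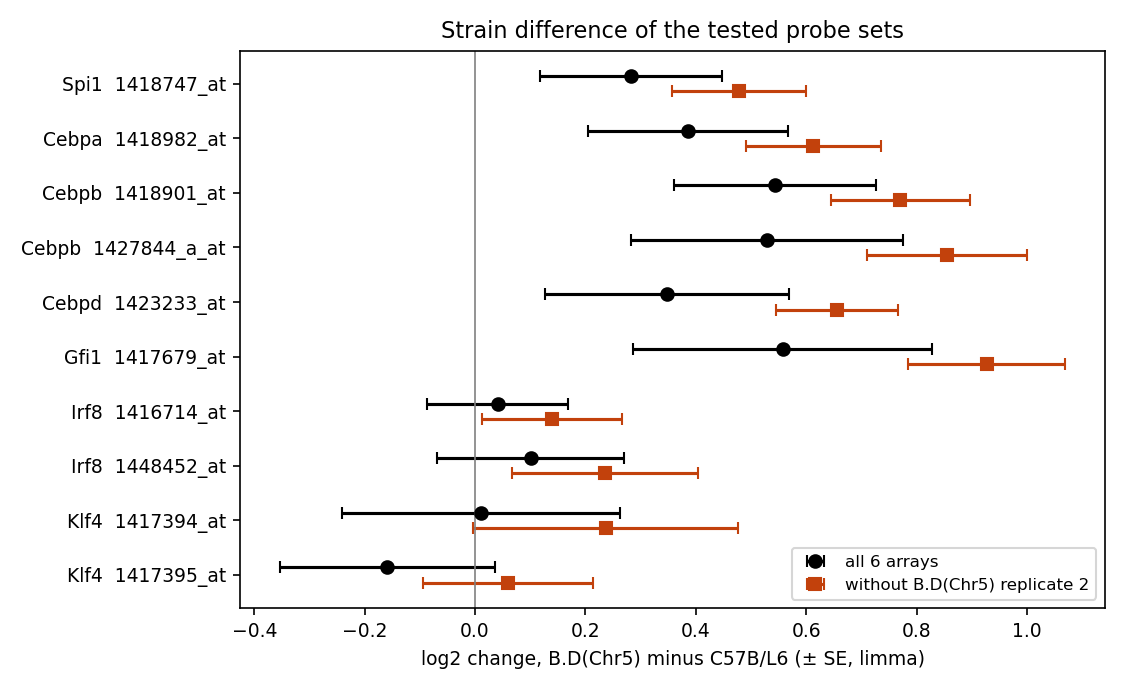
The log2 change of each tested probe set (x axis, B.D(Chr5) minus C57B/L6 on the log2(signal + 16) scale) is shown with its SE from limma, for all 6 arrays (circles) and without B.D(Chr5) replicate 2 (squares). Gfi1 lies at 0.93 without that array and at 0.56 with it, and the probe sets of Irf8 and Klf4 stay closest to 0.

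The next question was how the factors varied together between arrays. In all 10 tested probe sets B.D(Chr5) replicate 2 was the lowest of the B.D(Chr5) arrays, where 33.7% of all tested probe sets had this order. In 6 of the 10, B.D(Chr5) replicates 1 and 3 were the highest of the 6 arrays, against 7.88% of all (10.3% had both above the C57B/L6 arrays). These 6 were the tested probe sets of Gfi1, Cebpb, Cebpd, Cebpa and Spi1. The SD of the log2 signal had a median over the 10 of 0.41 in B.D(Chr5) and 0.17 in C57B/L6, against 0.16 in B.D(Chr5) and 0.15 in C57B/L6 over all tested probe sets. The SD was larger in B.D(Chr5) for 7 of the 10, against 54.1% of all.

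The spread within C57B/L6 varied between probe sets. On the brightest probe sets the SD of the log2 signal across C57B/L6 was 0.017 for Cebpd, 0.14 for Gfi1, 0.24 for Irf8 and 0.50 for Klf4, but the second probe set of Klf4 had 0.16, close to Gfi1. On their brightest probe sets, relative to the mean over the 6 arrays, Irf8 and Klf4 were lowest on C57B/L6 replicate 1. They stood at -0.29 and -0.58 on the log2 scale there. They were next lowest on B.D(Chr5) replicate 2, at -0.18 and -0.45. Spi1 had the same lowest arrays, at -0.34 and -0.25, and Cebpb was also lowest on C57B/L6 replicate 1, at -0.47. Gfi1 was lowest on B.D(Chr5) replicate 2, at -0.46, and highest on B.D(Chr5) replicates 1 and 3, at 0.65 on both. For Cebpa, Cebpb, Cebpd, Gfi1 and Klf4 the 6 arrays fell into 2 separate clusters, with over 0.5 of the range lying between neighbouring arrays, so no correlation between factors is given for pairs that hold one of them. For Spi1 and Irf8, Pearson's r was 0.80 (exact permutation p = 0.0694, adjusted over 21 pairs 0.122) and Spearman's rho 0.77 (exact permutation p = 0.103, adjusted 0.308). Without B.D(Chr5) replicates 1 and 3, the arrays farthest from the median of Spi1, r was 0.98, over the 4 arrays left.

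**Figure D3:**
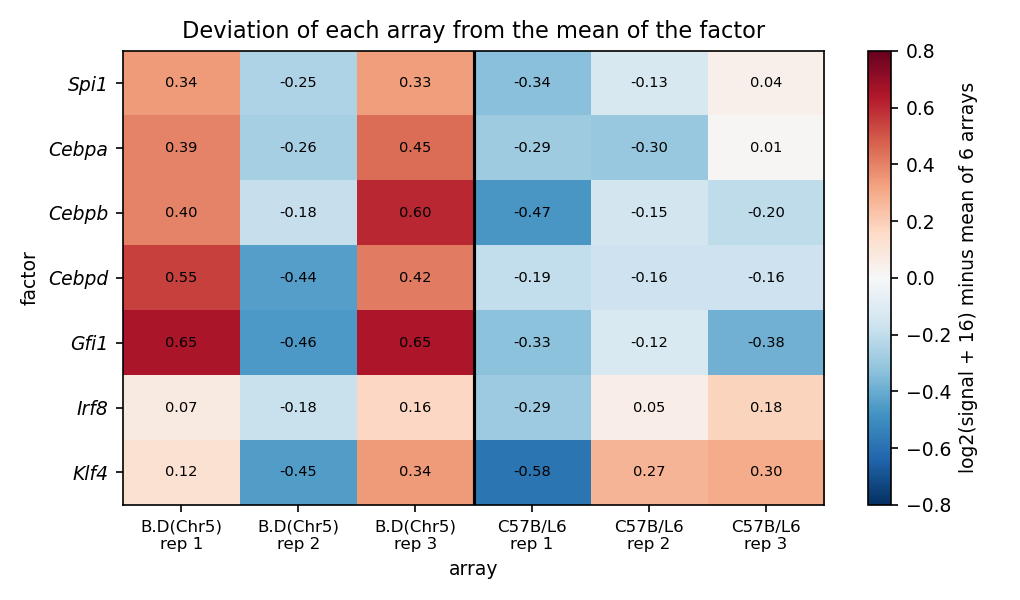
Each cell gives log2(signal + 16) of the brightest probe set of a factor (rows) on an array (columns, B.D(Chr5) left of the line and C57B/L6 right) minus the mean of that factor over the 6 arrays. Gfi1, Cebpb, Cebpd, Cebpa and Spi1 share high values on B.D(Chr5) replicates 1 and 3. C57B/L6 replicate 1 and B.D(Chr5) replicate 2 are below 0 for all 7 factors, and are the lowest arrays for Irf8, Klf4 and Spi1.

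Because Gfi1, Cebpa and Cebpb were high on the same arrays, the sequence around their start sites is shown, with that of Irf8, which followed another order. Spi1 and Cebpd were high on those arrays too, but no promoter window was available for them. The windows run from 250 bases before to 50 bases after a RefSeq start (GRCm38.p6), 5′ to 3′ on the strand of the gene. Capitals mark every match, on either strand, to 5 motifs: GAGGAA for PU.1, TTGCNNAA for C/EBP, AAATC for GFI1, CCNCNCCC for KLF factors and the IRF response element; matches may overlap.
Gfi1, chr5:107725756-107726055, minus strand: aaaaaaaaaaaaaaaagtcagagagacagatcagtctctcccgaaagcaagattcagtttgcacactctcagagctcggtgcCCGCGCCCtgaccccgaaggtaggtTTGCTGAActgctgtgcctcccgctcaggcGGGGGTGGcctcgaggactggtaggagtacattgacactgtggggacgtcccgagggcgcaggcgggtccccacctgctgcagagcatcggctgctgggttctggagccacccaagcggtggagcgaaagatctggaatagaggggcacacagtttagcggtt
Cebpa, chr7:35119043-35119342, plus strand: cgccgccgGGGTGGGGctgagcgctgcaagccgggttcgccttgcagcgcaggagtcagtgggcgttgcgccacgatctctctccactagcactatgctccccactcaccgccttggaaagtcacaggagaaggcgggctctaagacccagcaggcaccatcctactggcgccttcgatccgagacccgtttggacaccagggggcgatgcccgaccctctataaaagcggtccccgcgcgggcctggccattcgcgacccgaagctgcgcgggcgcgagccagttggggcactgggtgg
Cebpb, chr2:167688665-167688964, plus strand: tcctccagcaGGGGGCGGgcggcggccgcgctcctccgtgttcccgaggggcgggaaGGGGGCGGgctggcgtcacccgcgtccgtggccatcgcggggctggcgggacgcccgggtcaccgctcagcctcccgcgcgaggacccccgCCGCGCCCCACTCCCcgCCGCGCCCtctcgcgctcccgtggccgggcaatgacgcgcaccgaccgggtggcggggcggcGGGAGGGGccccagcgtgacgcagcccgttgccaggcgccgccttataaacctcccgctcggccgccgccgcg
Irf8, chr8:120736108-120736407, plus strand: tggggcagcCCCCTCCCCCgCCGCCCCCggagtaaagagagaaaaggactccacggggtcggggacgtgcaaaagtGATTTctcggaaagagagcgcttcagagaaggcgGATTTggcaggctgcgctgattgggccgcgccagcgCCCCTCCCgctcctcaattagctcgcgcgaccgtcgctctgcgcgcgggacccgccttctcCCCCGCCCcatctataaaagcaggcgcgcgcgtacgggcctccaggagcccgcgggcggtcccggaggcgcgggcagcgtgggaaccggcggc
The Gfi1 window held 1 match to the C/EBP motif, beginning at position -143 from the start, a motif found in 10.8% of the 32851 promoter windows of the table. The Irf8 window held 2 matches to the GFI1 motif, at -174 and -140, which 35.9% of all windows hold. KLF matches were found in the Gfi1 (2), Cebpa (1), Cebpb (6) and Irf8 (5) windows and in 49.5% of all windows. The PU.1 and IRF motifs, held by 28.3% and 3.44% of all windows, were not in these 4. The table held a second start for Gfi1 and for Irf8, and 1 for Klf4, not shown here. A match is a run of letters and not evidence that a factor binds there.

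Because the strain is named for chromosome 5, the genes beside Gfi1 were examined. The 10 tested genes on each side, from Gbp8 and Gbp6, interferon-induced GTPase genes, to Cplx1, which encodes a regulator of vesicle fusion, were taken from the order of the RefSeq annotation. Of these 20 neighbours 0 passed in limma, 0 had an unadjusted p under 0.05 and 0 passed without B.D(Chr5) replicate 2. Their log2 changes lay between -0.22 and 0.14 with a median of -0.041, and 8 of the 20 were positive. The nearest neighbours, Rpap2, for RNA polymerase II assembly, and Evi5, a cell cycle regulator, had log2 changes of -0.032 and 0.039. The log2 change of Gfi1, 0.56, lay above those of all 20. The chromosome 5 genes that passed the threshold lay on one side of Gfi1, the nearest being Lcorl with 154 tested genes between them.

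**Figure D4:**
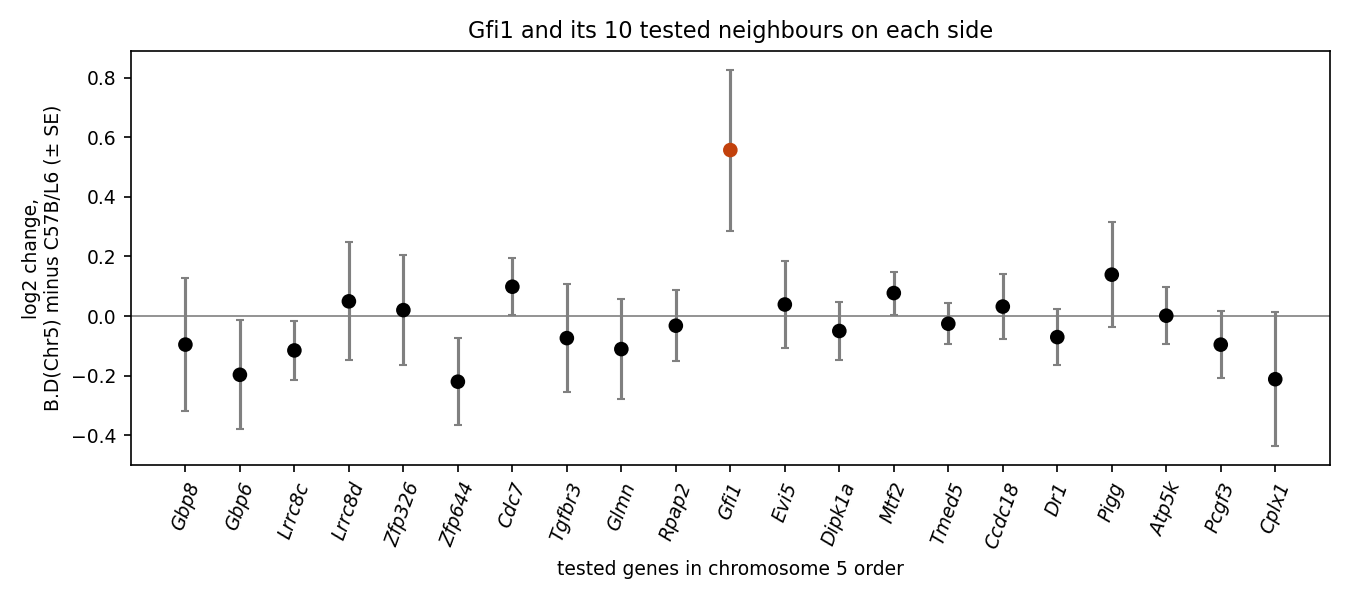
The log2 change (y axis, B.D(Chr5) minus C57B/L6, with its SE from limma, all 6 arrays) is plotted for Gfi1 and the 10 tested genes on each side in chromosome 5 order (x axis, even spacing, no distances). The 20 neighbours lie between -0.22 and 0.14 and Gfi1 lies at 0.56.

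Genes under the control of PU.1 and the C/EBPs, taken as a list of 22 of which 21 were measured and tested, were then described. Of the 21, 0 passed in limma with all arrays, 10 had an unadjusted p under 0.05 and were higher in B.D(Chr5) (2.18% of all tested probe sets), and 17 had positive log2 changes. Their median was 0.33, and 0.42 without B.D(Chr5) replicate 2, where 3 passed (0.324% of all). These 3 encode proteases of primary granules. Elane, for neutrophil elastase, had signals of 17245, 8822 and 16511 in B.D(Chr5) replicates 1, 2 and 3, against 8802, 7395 and 6143 in C57B/L6. Replicates 1 and 3 were the highest arrays, as for Gfi1, but replicate 2 lay just above the C57B/L6 arrays, where for Gfi1 it lay below them. For Ctsg and Prtn3 too all B.D(Chr5) arrays lay above C57B/L6, an order held by 4.16% of all tested probe sets. Without that array the log2 change of Elane was 1.19 (limma adjusted p = 0.0083), that of Ctsg, for cathepsin G, 0.73 (adjusted p = 0.0112) and that of Prtn3, for proteinase 3, 0.57 (adjusted p = 0.0305), where with all arrays the adjusted p was 0.536, 0.379 and 0.412. The receptor genes on the list had log2 changes of both signs, none of which passed. They were 0.19 for Csf2ra (GM-CSF receptor), 0.13 for Csf1r (M-CSF receptor), 0.075 for Csf3r (G-CSF receptor), 0.37 for the integrin gene Itgam, 0.33 for Tlr4 (endotoxin receptor), -0.34 for its co-receptor gene Cd14 and -0.22 for the Fc receptor gene Fcgr1. B.D(Chr5) replicate 2 was the lowest of its strain for 15 of the 21. Leaving it out raises their count by construction, so 0.324% is no fair reference. The list was drawn up with earlier results on some of these granule genes known, so its direction is not independent evidence.

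Summed cell type markers differed between the same arrays, in both directions. The summed signal of 7 genes of granulocyte-monocyte progenitors was 110407, 84523 and 105143 in B.D(Chr5) replicates 1, 2 and 3, against 80510.3, 77915 and 70978 in C57B/L6. B.D(Chr5) replicates 1 and 3 were the highest arrays for 6 of the 7, against 7.88% of all tested probe sets. Of these genes 0 passed in limma with all arrays (5 at an unadjusted p under 0.05, all higher, against 2.18% of all tested probe sets), and 4 (against 0.324% of all) passed without B.D(Chr5) replicate 2, namely Elane, Ctsg and Prtn3, also on the list above, and Ms4a3, a marker of committed granulocyte-monocyte progenitors, with a log2 change of 1.52 (limma adjusted p = 0.00451, against 0.499 with all arrays). Mpo, 1 of the 5, was also on the list of PU.1 and C/EBP targets. The markers of mast cells, basophils and eosinophils, summed over 7 genes, gave 15679, 7300.4 and 13252 in B.D(Chr5), against 7124, 7414 and 7062 in C57B/L6. Of these, 0 passed in limma with all arrays (5 at an unadjusted p under 0.05, all higher, against 2.18% of all) and 3 without replicate 2 (0.324% of all), namely the granule genes Mcpt8, Prg2 and Epx. That array was the lowest of its strain for 6 of the 7 genes here and for 6 of the 7 of granulocyte-monocyte progenitors. Leaving it out raises both counts by construction, so 0.324% is no fair reference for them. For 7 genes of stem and multipotent progenitors the sums were 11361, 13179 and 11594 in B.D(Chr5), against 12925, 13316 and 15219.7 in C57B/L6, and all 7 log2 changes were negative, with 0 passing in limma in either fit and 1 at an unadjusted p under 0.05 (4.75% of all). Erythroid markers, 5 measured and 4 tested, had sums of 28722, 36338 and 26789 in B.D(Chr5), against 34982, 28962 and 28519 in C57B/L6. They were highest on B.D(Chr5) replicate 2 and C57B/L6 replicate 1, the low arrays on the brightest probe sets of Irf8 and Klf4. Of the 4 tested, 0 passed in limma or had an unadjusted p under 0.05. B lymphoid markers, 6 measured and 5 tested, summed to 2769.97, 2332.9 and 5237.7 in B.D(Chr5), against 1934.5, 2327 and 2155 in C57B/L6. All 5 had positive log2 changes, 3 had an unadjusted p under 0.05 (2.18% of all were higher), 0 passed in limma, and B.D(Chr5) replicate 2 was the lowest of its strain for 4 (33.7% of all). Of the measured markers of these 5 lists, 0 stayed below the bacterial controls throughout. Genes of stroma and endothelium, 3 tested, had 3 higher at an unadjusted limma p under 0.05 (2.18% of all). Their sum was largest on B.D(Chr5) replicate 2, at 1942. Of 5 T and NK genes 3 were lower at that p (4.75% of all in either direction), and of 4 megakaryocyte genes 0. None of these passed in limma. The part of all these cell types in the values of Gfi1, Cebpa, Cebpb, Cebpd and Spi1 was not tested.

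Maturing neutrophils gave another order of arrays. The summed signal of 8 markers was 52835, 53660.2 and 73626 in B.D(Chr5), against 47297, 49091 and 43893 in C57B/L6, so that B.D(Chr5) replicate 2 was not the low array and all B.D(Chr5) arrays lay above C57B/L6. Of the 8, 0 passed in limma and 5 had an unadjusted p under 0.05, all higher (2.18% of all). All of the 8 but Cd177 were also on the list of PU.1 and C/EBP targets. The 5, Ltf, Camp, Ngp, Mmp8 and S100a9, were already counted there, so the 2 counts are not separate results. Camp, for the granule peptide cathelicidin, had signals of 4980.2, 5027 and 8473 in B.D(Chr5), against 4009.5, 3909.6 and 3452 in C57B/L6 (limma adjusted p = 0.594), and Ngp, a secondary granule gene, had a log2 change of 0.45 (adjusted p = 0.839).

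The genes of monocytes were a list of 13, with 12 measured and tested. Blnk and Bcl6, which are not specific to monocytes, were among them. B.D(Chr5) replicate 2 was the lowest of its strain for all 12, against 33.7% of all tested probe sets, and C57B/L6 replicate 1 was the lowest of its strain for 10, against 33% of all. Their summed signal was 59997, 47792 and 61886 in B.D(Chr5), against 45436, 53341 and 56858 in C57B/L6, with overlap between the strains. The sums were highest on B.D(Chr5) replicates 1 and 3, which were the highest arrays for 6 of the 12 genes (7.88% of all), an order that Irf8 and Klf4 did not have. Of the 12, 0 passed in limma with all arrays, 2 had an unadjusted p under 0.05 and were higher (2.18% of all), and 10 had values above 0, the median being 0.14 on the log2 scale. F13a1, for coagulation factor XIII A of monocytes, averaged 9381 ± 1632 in B.D(Chr5) and 7369.7 ± 91.9 in C57B/L6 (SD, n = 3 each), with a limma adjusted p of 0.905, and was the 1 gene of the 12 to pass without B.D(Chr5) replicate 2 (adjusted p = 0.0276; 0.324% of all passed). Leaving out that array, the lowest of its strain for all 12, raises such counts by construction, and 0.324% is no fair reference. Ly86, a partner of the Toll-like receptor relative RP105, had a log2 change of 0.20 (limma adjusted p = 1.00).

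**Figure D5:**
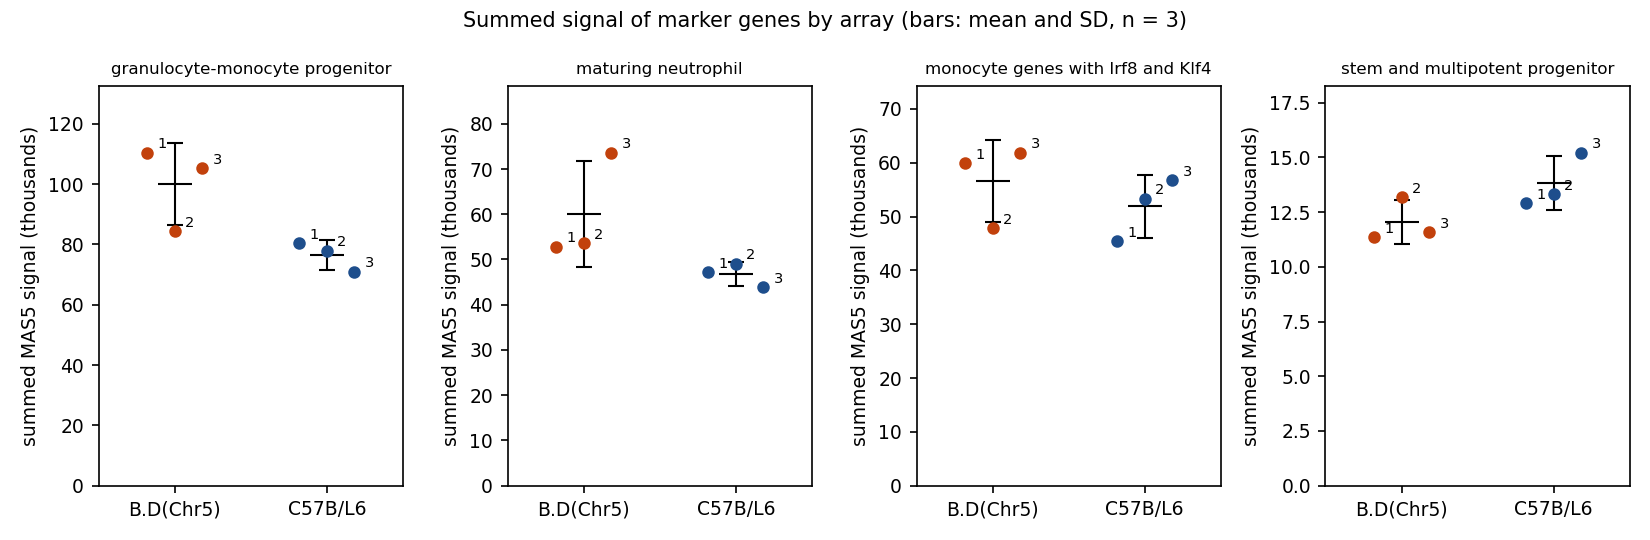
The summed MAS5 signal (y axis, linear scale) of the measured genes of 4 marker lists is plotted for each B.D(Chr5) array (left) and each C57B/L6 array (right), with replicate numbers, the mean and the SD. For granulocyte-monocyte progenitors B.D(Chr5) replicate 2 lies between the other B.D(Chr5) arrays and C57B/L6, and for monocyte genes C57B/L6 replicate 1 and B.D(Chr5) replicate 2 are the 2 low arrays.

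Genes known to be repressed by GFI1, 8 in the list and 7 measured, had log2 changes of both signs. Of the 7, 0 passed in limma with all arrays or without B.D(Chr5) replicate 2, 2 had an unadjusted p under 0.05 (4.75% of all), both lower in B.D(Chr5), 3 were positive, and the median was -0.12. Meis1, a stem cell cofactor of Hox proteins that is also among the stem cell markers above, averaged 827 ± 72.4 in B.D(Chr5) and 1109 ± 159 in C57B/L6 (SD, n = 3 each; limma adjusted p = 0.746). Id2, which blocks E proteins, averaged 1437 ± 239.8 in B.D(Chr5) and 2059 ± 494 in C57B/L6 (SD, n = 3 each; limma adjusted p = 0.925). For Id2, B.D(Chr5) replicates 1 and 3 and C57B/L6 replicate 1 had like signals, 1570.1, 1579.9 and 1493, so the strains overlapped.

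The genes most like each factor over the 6 arrays were found by Pearson's r of the log2 signal among all tested probe sets with a single symbol. Such r are extremes picked from all tested probe sets over only 6 arrays, and are given as descriptions with no p. For Gfi1, Cebpa, Cebpb, Cebpd and Klf4, whose arrays fell into separate clusters, a high r can rest on the split between the clusters alone. Gfi1 was most like Fkbp1b, a calcium channel binding protein gene (r = 0.995), and Sgip1, of endocytosis (r = 0.994), and over the 4 arrays other than B.D(Chr5) replicates 1 and 3 these r were 0.98 and 0.88. Cebpd was most like Dnajb11, a chaperone gene of the endoplasmic reticulum (r = 0.997), and Sgip1 (r = 0.992). Cebpb was most like the inhibitory Fc receptor gene Fcgr2b (r = 0.999), on a probe set whose name marks possible cross-hybridisation, and Sowahc. Cebpa was most like Rab5b, of early endosomes, and Ercc6l, a mitotic helicase gene. Spi1 was most like Ctsc, for the protease that activates granule serine proteases (r = 0.997), with signals of 3950.1, 2689 and 4053 in B.D(Chr5), against 2545, 2925 and 3186 in C57B/L6, and Naip2, an inflammasome receptor gene. Irf8 was most like the neonatal Fc receptor gene Fcgrt (r = 0.997) and Sh3bp5, and Klf4 most like the septin gene Septin7 and Lpxn, of adhesion sites. The probe set of Septin7, like that of Fcgr2b, has a name that marks possible cross-hybridisation.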

How the data were processed

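The deposited values are MAS5 signal intensity per probe set on a linear scale, per the submitters' processing notes. No version or setting of that step is stated in the labels. Their trimmed means show that the authors scaled each array to a mean of 500.0 after trimming at both ends. Symbols came from the platform annotation, updated through Entrez identifiers to RefSeq (GRCm38.p6); 34754 of the 34958 with 1 symbol matched. Coordinates and promoter sequences are RefSeq's; the arrays' values carry no build.

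Intensities were turned into log2(signal + 16). Probe sets in the upper 50% by mean signal were tested in limma 3.58.1 (R 4.3.3; lmFit, eBayes with trend, strain the only term, two-sided), with Benjamini-Hochberg adjustment over all 22518. Fold changes on this scale understate those of dim probe sets. The fit was tested on simulated data, in which known differences had been planted. Where the planted log2 difference was 0.5, the fit found 17 out of 67. It found 49 out of 67 where the difference was 1, and 66 out of 66 where it was 2. A further 17 calls were false. Differences near 0.5 were thus mostly missed, so a factor that did not pass may still differ by that much. Signals of different probe sets were not compared. Of a gene's probe sets, the brightest stands for it in lists. Precision is limited by having 3 arrays per strain.

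The factors and gene lists were chosen with earlier results of these data known. Named were all probe sets of the factors, the called genes of a list or otherwise its 2 of smallest p, called neighbours of Gfi1, and the 2 genes most like each factor; other genes were named for their role or for their place, after their values were seen. Alternatives were other pseudocounts, filters and scalings, an untrended eBayes, blocking on replicate number, averaging probe sets of a gene, and each array left out. Deviations of same-numbered arrays had r of mixed sign (-0.11, -0.20 and 0.20 for numbers 1, 2 and 3), so the number was not used as a pair. Across numbers, r was 0.30 for B.D(Chr5) replicate 2 with C57B/L6 replicate 1. It was 0.26 for B.D(Chr5) replicate 1 with C57B/L6 replicate 2. What these arrays shared was not tested, and the fits held no term for it.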

Additional observations from a re-analysis of the deposited data

How the results depend on the processing

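With all arrays, 41 probe sets passed in limma. The count was 21 with the upper 25% of probe sets only, 67 after centring on the median, 25 without trend and 27 with the replicate number as a block, and lay between 21 and 73 with 1 array left out. The cause was not tested. The count for the factors was 0 in all settings other than those with 1 array left out, where it ranged from 0 to 1, the 1 being Gfi1 without B.D(Chr5) replicate 2. With the replicate block 0 factors passed; the limma adjusted p was 1.00 for Gfi1 and 0.990 for Cebpb. Gfi1, Cebpa, Cebpb, Cebpd and Spi1 kept a positive log2 change in every alternative in which they were tested; Gfi1 was not tested in the upper 25%. Klf4 turned to -0.00093 after centring and -0.074 as the mean of its probe sets, and ran from -0.28 to 0.24 with 1 array left out, with -0.046 and -0.16 without B.D(Chr5) replicate 1 or 3. Irf8 ran from -0.095 to 0.14, with -0.030 without B.D(Chr5) replicate 3. The median log2 change of all tested probe sets moved to -0.0042 with quantile normalization and -0.012 after centring.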

Other observations

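Of 21 related genes of the C/EBP, GFI, ETS, IRF and KLF families, 20 were tested, 0 passed in limma (2 at an unadjusted p under 0.05, both higher in B.D(Chr5), against 2.18% of all tested probe sets), and the median log2 change was 0.0017. B.D(Chr5) replicates 1 and 3 were the highest arrays for 2 of the 20 (7.88% of all). Irf7, which drives interferon responses, had signals of 502, 510.5 and 478 in B.D(Chr5), against 346, 419 and 319 in C57B/L6, so that all B.D(Chr5) arrays lay above C57B/L6 (limma adjusted p = 0.702; 4.16% of all tested probe sets had this order). Irf4, of lymphoid and dendritic cells, averaged 202 ± 84.8 in B.D(Chr5) and 103 ± 10.5 in C57B/L6 (SD, n = 3 each; limma adjusted p = 0.834). Gfi1b, the erythroid and megakaryocytic relative of Gfi1, averaged 3669 ± 646 in B.D(Chr5) and 3503 ± 578 in C57B/L6 (SD, n = 3 each), a log2 change of 0.065.

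Among 17 partners and regulators of the factors, 15 were tested and 0 passed in limma (3 at an unadjusted p under 0.05, all lower in B.D(Chr5), against 4.75% of all in either direction), with a median log2 change of -0.038. Egr1, a zinc finger factor of monocytes and of the immediate early response, had signals of 536, 414 and 500.1 in B.D(Chr5), against 667, 981 and 1171 in C57B/L6 (limma adjusted p = 0.278). Jun, a partner of PU.1, averaged 2769 ± 1328 in B.D(Chr5) and 5336 ± 1889 in C57B/L6 (SD, n = 3 each; adjusted p = 0.941). Runx1 and Cbfb, the subunits of core binding factor, had log2 changes of 0.16 and 0.042, and Kdm1a and Rcor1, corepressors recruited by GFI1, had -0.070 and 0.025.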
